A study of Mus musculus with 6 samples.

Results

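The immediate early genes described here are Fos, Fosb, Jun, Junb, Jund, Egr1, Ier2, Atf3, Dusp1 and Zfp36. All probe sets annotated to a single symbol among these 10 genes were taken, which gave 12 of the 45037 probe sets on the array, 2 each for Jun and Jund and 1 for each other gene. All 10 genes were measured, out of 18193 genes with a single-symbol probe set, and no member was left out by a filter. The genes were chosen by symbol, but with their differences between knockout and control on these same arrays already known. Those differences are therefore given as a description.

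The arrays compared 3 control mice, Bcl11a +/+, with 3 knockout mice, Bcl11a fl/fl EpoR-Cre+, with 1 Affymetrix array per mouse. All 6 mice were female and 6 weeks old, and the RNA came from bone marrow cells sorted for the transferrin receptor, CD71, and for Ter119, a surface antigen of red cell precursors. Cre was driven from the erythropoietin receptor gene and the control labels do not name it, so effects of Cre and of the loss of Bcl11a cannot be told apart. Beyond the Bcl11a and Cre alleles the labels give no strain background.

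Immediate early genes are transcribed within minutes of a stimulus, without new protein synthesis, after MAP kinases act on factors already bound at their promoters. FOS and JUN family proteins pair through leucine zippers to form AP-1, a dimer that binds DNA and drives a second wave of genes, while DUSP1 and ZFP36 end the response by dephosphorylating MAP kinases and by speeding the decay of short-lived mRNAs. The same genes are known to be induced when tissue is dissociated and cells are sorted, so the values of every mouse are given and their spread is described.

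The promoters of Zfp36, Fosb and Dusp1 are shown because, among the members searched, they are the ones with a complete match to the motif of a known driver of these genes. RefSeq promoters (GRCm38.p6) were found for 8 of the 10 genes. Egr1 and Ier2 had none and were not searched, and neither were bases farther from the start than the 250 described next. In the 250 bases before each start, both strands were searched for the CArG box bound by serum response factor, the cAMP response element TGACGTCA, the AP-1 site TGACTCA and the EGR site GCGGGGGCG. Capitals mark the matches, each sequence reads 5′ to 3′ on the gene's strand, which is the minus strand for all 3, and Zfp36 lies at chr7:28379229-28379478, Fosb at chr7:19310046-19310295 and Dusp1 at chr17:26508473-26508722.
Zfp36: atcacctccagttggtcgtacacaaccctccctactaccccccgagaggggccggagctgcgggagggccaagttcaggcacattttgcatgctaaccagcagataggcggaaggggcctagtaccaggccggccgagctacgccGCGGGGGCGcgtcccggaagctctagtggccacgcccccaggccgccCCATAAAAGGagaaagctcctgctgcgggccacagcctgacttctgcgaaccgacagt
Fosb: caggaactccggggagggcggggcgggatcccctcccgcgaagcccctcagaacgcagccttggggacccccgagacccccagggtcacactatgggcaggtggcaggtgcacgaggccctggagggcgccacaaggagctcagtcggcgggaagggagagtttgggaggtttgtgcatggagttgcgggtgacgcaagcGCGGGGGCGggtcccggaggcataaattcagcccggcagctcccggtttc
Dusp1: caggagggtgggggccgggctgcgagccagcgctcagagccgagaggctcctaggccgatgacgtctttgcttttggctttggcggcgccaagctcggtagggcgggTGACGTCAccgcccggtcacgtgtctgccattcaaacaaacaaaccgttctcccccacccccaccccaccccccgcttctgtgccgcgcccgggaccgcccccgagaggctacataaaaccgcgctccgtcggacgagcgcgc

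The Zfp36 promoter held a CArG box 58 to 49 bases before the start and an EGR site 105 to 97 bases before it. Fosb held an EGR site 50 to 42 bases before its start, and Dusp1 a full cAMP response element 143 to 136 bases before its start. Among all 32851 promoters of this length, 1.47% held a CArG box, 1.55% the cAMP response element, 2.57% the EGR site and 4.46% the AP-1 site, which none of the 8 members held. The shorter element TGACG, which the cAMP response element contains, was found in 5 of the 8 (Fos, Fosb, Junb, Atf3 and Dusp1) and in 17.8% of all promoters. Fos also held the TATA box TATAAA, searched on the gene's strand only, as did 7.59% of promoters. A match is a string of letters and not a bound site.

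The arrays were on one scale, with median intensities between 67.5 and 70.9. Bcl11a was read by 7 probe sets, none of which passed the test, and their groups were separated with the knockouts below in 4, above in 2 and not at all in 1. Of all probe sets, 8.91% were separated below and 10.6% above. The brightest Bcl11a probe set had control intensities of 1475, 1553 and 1450 and knockout intensities of 1286, 1419 and 1190. Where the Bcl11a probe sets lie relative to the deleted part is not stated, so they do not check the genotype. Erythroid markers were bright, as the sort implies, but so were markers of neutrophils. Of the 10 neutrophil markers, 7 lay in the brightest 1% of probe sets, and S100a8 had the highest intensity on every array. Transcripts typical of another cell type were thus abundant in the sorted RNA, and fewer cells of a type and less RNA per cell cannot be told apart in these bulk samples.

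All 10 immediate early genes had lower intensities in the knockouts than in the controls. Each of the 12 probe sets had all 3 knockout values below all 3 control values, whereas 8.91% of all probe sets and 12.3% of those in the brightest 50% were separated in that direction. The log2 change was largest for Fosb, at -1.34, and smallest for Jund, at -0.17, with a median of -0.36 over the 10 genes against -0.01 over all probe sets, of which 51.2% had a change below 0. No member passed the test over all probe sets (limma, adjusted p threshold of 0.05), where 0.147% of probe sets passed in either direction, 0.00666% being called lower and 0.14% higher. At an unadjusted p under 0.05, 8 of the 10 genes passed, as did 12.4% of all probe sets in either direction. Because the genes were chosen with these results known, the share that separated is a description and supports nothing further.

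**Figure D1:**
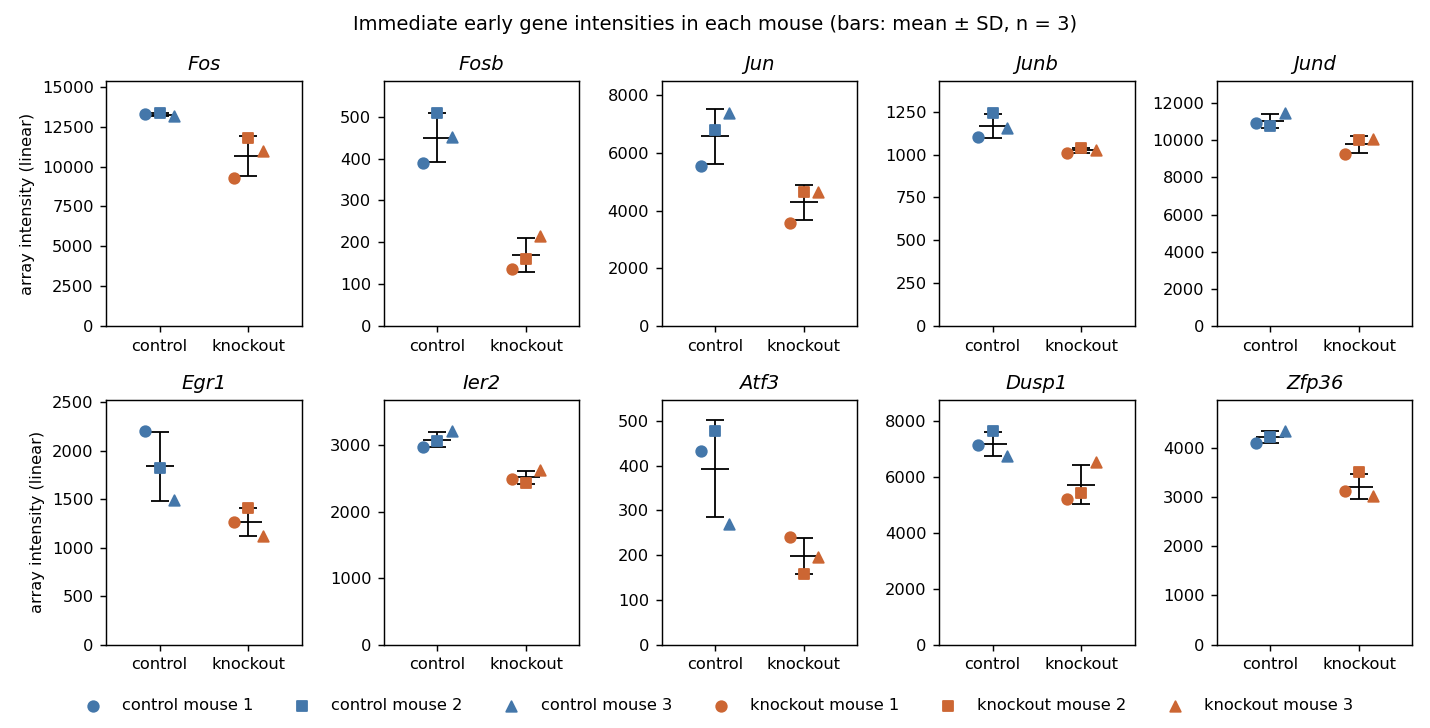
Array intensity on a linear scale (vertical axis, from 0) of each immediate early gene in 3 control and 3 knockout mice, with 1 panel per gene, 1 point per mouse, and bars for the mean and SD. In every panel the 3 knockout points lie below the 3 control points, widely for Fosb and narrowly for Junb and Jund.

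Among the FOS proteins, which dimerise only with partners such as JUN, Fosb differed most. Fosb (probe set 1422134_at) had intensities of 390, 509 and 451 in the control mice and 135, 161 and 215 in the knockout mice. The lowest control and the highest knockout were farther apart than the mice of either group. The knockout mean was 37.8% of the control mean, a log2 change of -1.34 ± 0.19 (SE, 95% interval from -1.79 to -0.89), and the gene came closest of the 10 to passing (limma, adjusted p = 0.0839). Of all probe sets, 3 had a lower log2 change than Fosb.

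Fos (1423100_at), the founding member of the family, had 13278, 13360.5 and 13146 in the controls. The knockouts had 9276, 11775 and 10957, with knockout mouse 1 well below the other two. The controls differed by at most 1.02-fold among themselves and the knockouts by 1.27-fold. The knockout mean was 80.5% of the control mean, a log2 change of -0.32 ± 0.12 (SE, adjusted p = 0.359 in limma).

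The JUN proteins can pair with one another as well as with FOS proteins. Jun (1417409_at), the most potent activator of the 3, had 5544, 6807 and 7389 in the controls and 3589, 4632 and 4651 in the knockouts. In each group mouse 1 was the lowest. Its log2 change was -0.61 ± 0.16 (SE, adjusted p = 0.237 in limma), with the knockout mean at 65.2% of the control mean. The dimmer Jun probe set (1448694_at) had 496, 704 and 672 against 336, 424 and 361, and its change of -0.71 ± 0.17 was within 1 SE of that of the brighter one.

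Junb and Jund differed least between the groups. Junb (1415899_at), which can restrain Jun, had 1104, 1243 and 1156 in the controls and 1011, 1040 and 1028 in the knockouts. The groups were separate, but by less than the range within the controls. Its log2 change of -0.18 had a 95% interval from -0.42 to 0.05 (adjusted p = 0.50 in limma).

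Jund is the JUN gene that is expressed most steadily in unstimulated cells. Its brighter probe set (1449117_at) had 10912, 10744 and 11468 in the controls and 9266, 10022 and 10084 in the knockouts. The log2 change was -0.17, with a 95% interval from -0.41 to 0.06 (adjusted p = 0.517 in limma). The other Jund probe set (1440265_at) had values from 7.07 to 26.5 on all 6 arrays, at percentile 16.2 of brightness, where the treatment of low values decides a change.

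ATF3, a bZIP protein induced by stress that often represses its targets, showed the second largest difference and the widest spread. Atf3 (1449363_at) had 432, 476 and 270 in the controls and 240, 158 and 196 in the knockouts. Control mouse 3 stood nearer to knockout mouse 1 than to the other controls. The knockout mean was 50.4% of the control mean, a log2 change of -0.91 ± 0.24 (SE, 95% interval from -1.50 to -0.32, adjusted p = 0.241 in limma).

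Egr1 and Ier2 encode immediate early nuclear proteins outside AP-1. Egr1 (1417065_at), a zinc finger activator that binds the EGR site searched for above, had 2200, 1819 and 1497 in the controls and 1263, 1410 and 1117 in the knockouts. The lowest control and the highest knockout differed by less than the controls did among themselves. Its log2 change was -0.52 ± 0.17 (SE, adjusted p = 0.314 in limma).

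Ier2 (1416442_at) had 2978, 3070 and 3210 in the controls and 2500, 2436 and 2625 in the knockouts. Neither group spread by more than 1.08-fold, so the groups lay well apart although the difference was modest. The log2 change was -0.29 ± 0.09 (SE, adjusted p = 0.314 in limma), and the knockout mean was 81.7% of the control mean.

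The 2 genes that damp the response, Dusp1 and Zfp36, were lower as well. Dusp1 (1448830_at), whose phosphatase inactivates p38, JNK and ERK, had 7137, 7618 and 6754 in the controls and 5220, 5413 and 6517 in the knockouts. Knockout mouse 3 came close to control mouse 3. On the log2 scale the change was -0.33 ± 0.12 (SE, adjusted p = 0.361 in limma).

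Zfp36 (1452519_a_at), which encodes the mRNA-destabilising protein tristetraprolin, had 4100, 4228 and 4339 in the controls and 3119, 3504 and 3022 in the knockouts. The gap between the groups exceeded the range within either. The log2 change was -0.39 ± 0.10 (SE, 95% interval from -0.64 to -0.14, adjusted p = 0.236 in limma). For each of the 10 genes the exact two-sided permutation p was 0.1, the smallest that 3 against 3 mice allow.

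**Figure D2:**
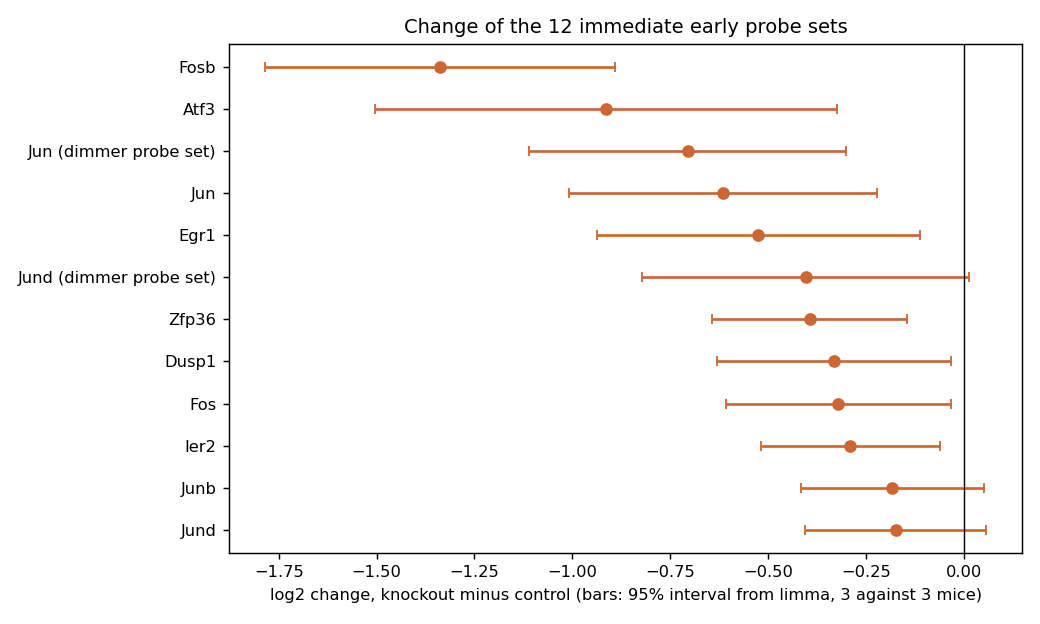
Log2 change of the 12 immediate early probe sets, knockout minus control (horizontal axis), with 95% intervals from limma as bars. All 12 estimates lie below 0, from -1.34 for Fosb to -0.17 for Jund, and the intervals of Junb and both Jund probe sets include 0.

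How many members passed depended on how the variances were moderated. With an intensity trend and robust moderation, limma called 8 of the 10 lower (all but Junb and Jund), while 0.531% of all probe sets were called lower and 2.68% higher. Fosb then had an adjusted p of 0.000314, Zfp36 one of 0.00847 and Jun one of 0.0178, whereas Dusp1 had 0.0497 and Egr1 0.0472. Under that moderation, leaving out 1 mouse at a time left 2 to 4 members called (2 without control mouse 2, 3 without mouse 3 of either group and 4 without any other), in fits that called 0.14% to 0.551% of all probe sets lower. Fosb passed whichever mouse was left out, with adjusted p from 0.000371 to 0.00534, and Jun and Zfp36 passed in 4 of 6 such fits. Fos, Egr1, Ier2 and Dusp1 each passed in 1 of 6, and Atf3 in 2.

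The spread between mice within a group differed widely among the members. The residual SD on the log2 scale ran from 0.05 for Ier2 to 0.35 for Atf3, with a median of 0.13. Against the 1000 probe sets nearest in intensity, Atf3 lay at percentile 97.6 of spread, Jun at 94.4, Egr1 at 94.1 and Fosb at 90.3. Dusp1 lay at 77.1 and Fos at 76.2. In contrast, Zfp36 at 48.2, Jund at 36.2, Junb at 17.4 and Ier2 at 17.3 varied no more than the median of their neighbours. Genes of the same family were thus found at both ends, as with Jun and Junb.

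**Figure D3:**
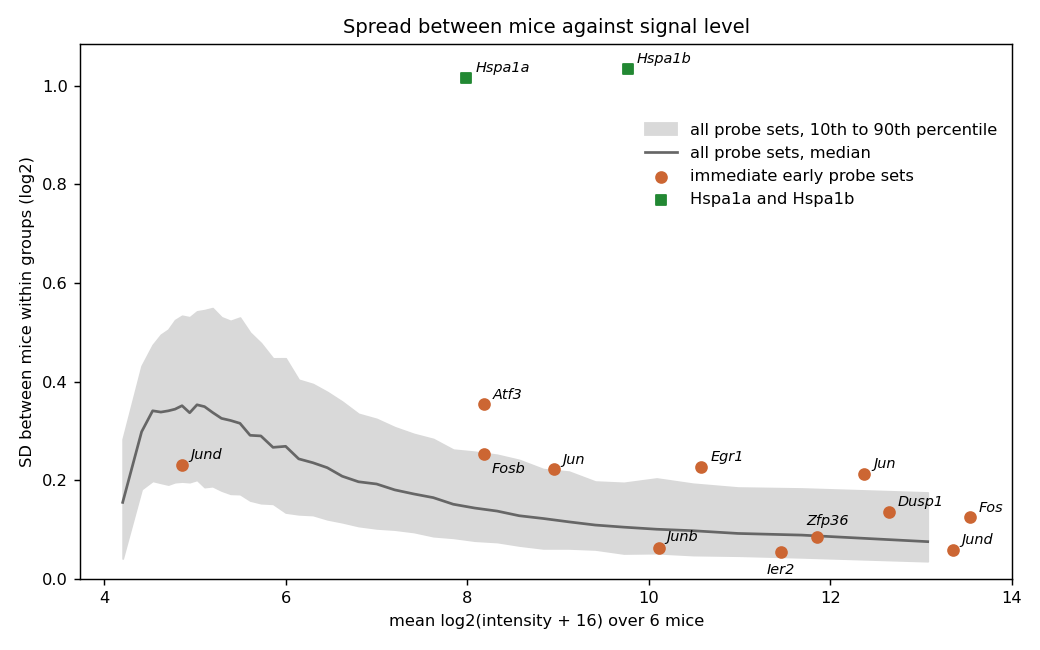
Residual SD between mice within groups (vertical axis, log2) against mean log2(intensity + 16) (horizontal axis) for the immediate early probe sets, Hspa1a and Hspa1b, with the median and the 10th to 90th percentile band of all probe sets. Atf3, Egr1 and the brighter Jun probe set lie above the band, and Fosb and the dimmer Jun probe set lie at its upper edge. Ier2 and Junb lie below the median line, and the 2 heat shock genes lie far above all members.

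The members did not share 1 order of mice. Control mouse 2 was highest in its group for 5 genes and control mouse 3 for 4, while control mouse 1 was lowest for 5. Among the knockouts, mouse 1 was lowest for 6 genes and mouse 3 highest for 5. Averaged over the 10 genes, a mouse deviated from its group mean by -0.07 to 0.07 on the log2 scale.

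Over the 6 mice, after each group's mean was removed, 28 of the 45 pairs of members had a correlation above 0, with a median r of 0.26. These values are descriptions, since all genes share the same 6 arrays. Fosb and Dusp1 had r = 0.86, Jun and Jund r = 0.80, and Fosb and Jun r = 0.74. Egr1 and Ier2 ran opposite to each other at r = -0.96, as did Atf3 and Jund at r = -0.85. Within the controls, Egr1 was highest in mouse 1 and lowest in mouse 3, where Jun and Ier2 were lowest in mouse 1 and highest in mouse 3.

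**Figure D4:**
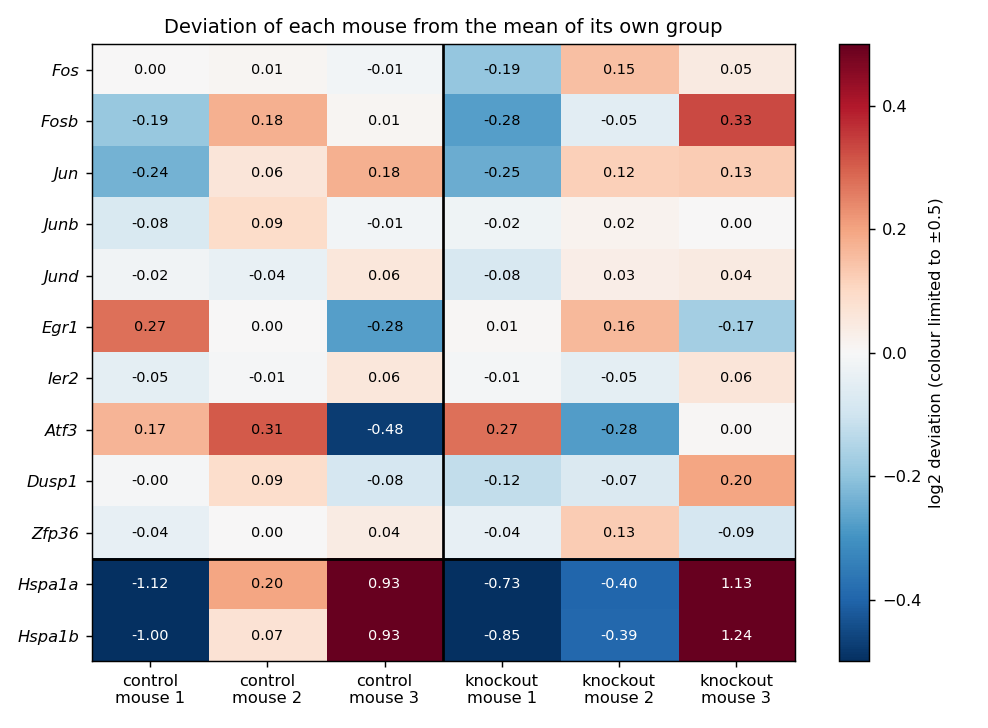
Log2 deviation of each mouse (columns) from the mean of its own group for the 10 immediate early genes and for Hspa1a and Hspa1b (rows); colour is limited to 0.5 in either direction and the numbers give the values. No mouse is high or low for all 10 genes. Hspa1a and Hspa1b deviate by more than 0.9 upward in control mouse 3 and knockout mouse 3, and downward in control mouse 1.

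Hspa1a and Hspa1b, the inducible HSP70 genes, respond to heat and cell stress and vary with sample handling. Hspa1b had intensities of 345, 742 and 1359 in the controls and 569, 788 and 2475 in the knockouts. Hspa1a had 86.0, 239 and 407 in the controls and 159, 205 and 620 in the knockouts. In both genes the groups overlapped and mouse 3 was the highest of its group. These near-identical genes can share probes. Their residual SDs of 1.02 for Hspa1a and 1.03 for Hspa1b were larger than those of all of their 1000 neighbours in intensity.

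The deviations of Ier2 followed those of Hspa1a at r = 0.92, Fosb at r = 0.83 and Jun at r = 0.83, whereas Egr1 ran opposite at r = -0.89 and Atf3 at r = -0.46. Of 11 measured heat shock genes, none passed the test. In 3 the groups were separated with the knockouts above, as in 10.6% of all probe sets. In 1 they were separated with the knockouts below, as in 8.91% of all probe sets. Dnajb1, the HSP40 partner of HSP70, had a log2 change of 0.33 ± 0.12 and Hsph1, an HSP70 exchange factor, one of 0.31 ± 0.13. The median of the list was 0.09, opposite in sign to that of the immediate early genes. The labels give no order or time of sorting, and the part of handling in the difference between the groups was not tested.

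By a rule on the highest correlation with the mean deviation of the 10 genes, over the 6 mice and 12154 candidate genes, the genes most alike were 8430432A02Rik (r = 0.99), Slc16a7, Slc25a48, Smco3, Spata7, Sh3gl1, 4930544M13Rik, Ipp, Alg11 and Tex46 (r = 0.98). None is an immediate early gene, and their groups overlapped in all 10, as did those of 36241 of the 45037 probe sets. 8430432A02Rik, 4930544M13Rik and Slc25a48 were dim, at percentiles 14.3, 16.3 and 20.7 of brightness, where the treatment of low values affects a deviation. With so few mice and so many candidates, a correlation this high is a description only.

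Other immediate early genes more often had a log2 change below 0 than above it. Of 40 measured, none passed the test; 17 had all knockout values below all control values (8.91% of all probe sets) and 4 had them above (10.6% of all probe sets), and 30 had a log2 change below 0. The median was -0.19. With trend and robust moderation 8 were called lower, against 0.531% of all probe sets, and 3 higher, against 2.68% of all probe sets. Cd69, a lymphocyte activation antigen, had 833, 1236 and 1021 in the controls and 433, 399 and 405 in the knockouts, a log2 change of -1.27 ± 0.16 (SE, adjusted p = 0.0703 in limma). Rgs1, a regulator of G protein signalling known mainly from B cells, had 964, 999.8 and 771 against 468, 443 and 484, a log2 change of -0.94 ± 0.13 (adjusted p = 0.0832). The knockout mice lay close together for both genes.

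In the opposite direction, Pim1, a survival kinase induced by STAT5, had 3241, 2587 and 2743 in the controls and 4860, 5444 and 5198 in the knockouts, a log2 change of 0.86 ± 0.12 (adjusted p = 0.0889 in limma). Gadd45a, a stress gene of growth arrest, had a log2 change of 0.64 ± 0.09 (adjusted p = 0.0930). The Kruppel-like genes Klf2, Klf4 and Klf6, which belong to the same early response, were named after their values were seen. Their log2 changes were -0.39, -0.51 and -0.39, with knockouts below controls without overlap, as in 8.91% of all probe sets. Nr4a1, an orphan nuclear receptor that is a standard early response gene, had a change of -0.02.

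Of the other bZIP genes that can pair with AP-1 proteins, 13 were measured and none passed, with a median log2 change of 0.01. No member of that list had all knockout values below all control values, against 8.91% of all probe sets. Mafk (0.56 ± 0.15) and Atf2 (0.23 ± 0.11) had all knockout values above, as did 10.6% of all probe sets. Mafk encodes a small MAF protein that partners NF-E2 in erythroid cells. Fosl2, another FOS family gene, had a change of 0.11.

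Upstream, 19 MAP kinase pathway genes and factors were measured, and none passed, with a median log2 change of -0.10. Srf, which encodes the serum response factor that binds the CArG box, had a control intensity of 680 ± 29.6 and a knockout intensity of 586 ± 47.0 (SD, n = 3), which is a log2 difference of -0.21 ± 0.11. Map2k3, a kinase that activates p38, had one of 0.43 ± 0.16. Among the 9 other MAP kinase phosphatase genes, none passed. In 3 all knockout values lay below all control values, against 8.91% of all probe sets. In 1, Dusp8 (log2 change 0.23 ± 0.11), they lay above, as in 10.6% of all probe sets. The 3 were Dusp6, an ERK-specific phosphatase that ERK itself induces (log2 change -0.51 ± 0.13), Dusp5 (-0.46 ± 0.16) and Dusp2 (-0.44 ± 0.12). The list's median was 0.04. Of 6 relatives of Zfp36 and genes of mRNA decay, none passed; Zfp36l1 had a change of -0.26 ± 0.11 and the median was 0.04.

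Marker genes of several cell types also differed in level between the groups, although none of them passed the test. With trend and robust moderation, 4 erythroid markers and 1 monocyte and macrophage marker (Csf1r) were called higher, and 3 B cell, 1 basophil and mast cell and 1 stem and progenitor cell marker lower. That fit called 2.68% of all probe sets higher and 0.531% lower. The summed intensity of 8 erythroid markers was 67707 to 81351 in the controls and 87247 to 94739 in the knockouts. Of the 8, 6 were separated upward, such as Rhag at a log2 change of 0.91, against 10.6% of all probe sets. Alas2 at -0.06 and Epor at -0.14 had groups that overlapped. The sum of 10 neutrophil markers was 211975 to 214367 against 195991 to 205210, and the change of each lay between -0.13 and 0.02. Of the 10, 6 were separated downward, against 8.91% of all probe sets, and 0 upward. The summed intensity of the 10 immediate early genes was 48076 to 49875 against 35618 to 40550. None of these sums overlapped between the groups.

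The sum of 9 B cell markers was 19249 to 21952 in the controls and 14870 to 19580 in the knockouts, so the groups overlapped, while the pre-B cell genes Igll1 and Vpreb1 had changes of -1.31 and -1.19. The sum of 7 basophil and mast cell markers was 8491 to 8710 against 5750 to 7577, and that of 8 stem and progenitor cell markers 8717 to 9050 against 5771 to 7316, with all members of both lists below 0. The groups were separated downward in 3 B cell, 3 basophil and mast cell and 3 stem and progenitor cell markers, and upward in 0. Among all probe sets, 8.91% were separated downward. The sum of 8 monocyte and macrophage markers was 36790 to 37553 against 36693 to 37566, that of 7 T and NK cell markers 3978 to 4690 against 3569 to 4287, that of 6 megakaryocyte markers 1642 to 2087 against 1521 to 2510 and that of 7 endothelial and stromal markers 930 to 1059 against 979 to 1259. In the T and NK cell list 5 of the 7 markers had a log2 change above 0 and 2 below, with a median of 0.16. The 2 below, Nkg7 at -0.10 and Il7r at -0.40, were the brightest of that list, with control means of 1797 and 1532. No marker in any list had a value of 1 or less, the lowest level at which values gather on these arrays. Blood cells of these types are known to express immediate early genes, and the part of the cell mixture in the lower levels of the 10 genes was not tested.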

How the data were processed

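Gene expression was measured on 1 Affymetrix array per mouse, each a separate animal per the labels. The authors deposited 1 table of linear intensity per probe set; how probes were summarised, corrected and scaled is not stated in the labels used. Between 775 and 874 values per array were exactly 1, so very dim probe sets are sensitive to how low values were treated. Probe sets were named from the platform's annotation: 34945 had 1 symbol, 932 several and 9160 none, and each gene was represented by the brightest of its single-symbol probe sets.

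Intensities became log2(intensity + 16), which understates changes of dim probe sets. The arrays' log2 medians and interquartile ranges differed by at most 0.06 and 0.07, under the limit of 0.1 for normalizing again. Knockout and control were compared by limma 3.58.1 under R 4.3.3 (no intensity trend, two-sided, Benjamini-Hochberg over 45037 probe sets, threshold 0.05). A prior check on simulated data inserted changes larger than those of most members. It does not show how often changes of their size are called. SEs and intervals come from the fit, and percentages are ratios of mean intensities. The number of arrays limits the precision.

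The members and lists were chosen with earlier results of these data known. The genes named are all members, up to 4 genes of each other list by p, with Nr4a1, Fosl2, Klf2, Klf4, Klf6 and the Hspa1 genes added after their values were seen, and the 10 genes most alike in deviations (residual SD at or above the members' median). Alternatives were normalizations, pseudocounts of 1 and 64, filters, moderation, array weights, a block and left-out mice. The combination of trend moderation with left-out mice was chosen after seeing the data.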

Additional observations from a re-analysis of the deposited data

How the results depend on the processing

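Under all 17 other settings the 10 genes kept log2 changes below 0, and their median lay between -0.47 and -0.33. Of 170 combinations of gene and setting, 160 stayed on the same side of the threshold and 10 crossed it to a call. The count of members called went from 0 to 1 (Fosb) with a pseudocount of 64, to 1 (Fosb) in the brightest 50% of probe sets and to 8 with an intensity trend and robust moderation, and under that moderation to 2, 3 or 4 without 1 mouse. The 66 probe sets called in all became 38 with a pseudocount of 1, 558 with one of 64, 853 in the brightest 50% and 1445 with trend and robust moderation, and 27 to 41 on leaving out 1 mouse, lowest without knockout mouse 1. The cause of these shifts was not tested. The median residual SD of the members lay between 0.11 and 0.15. With the mouse number as a replicate block 14 probe sets and 0 members were called (median change -0.36), but same-numbered mice deviated together at r = -0.06, 0.00 and -0.07 over the brightest 50% of probe sets, so the numbers were not taken to pair the mice.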
